A study of Mus musculus with 6 samples.

Results

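Collagen alpha chains were followed in D2A1 tumor spheroids after treatment with rSLURP1, recombinant SLURP1, a secreted protein of the Ly6/uPAR family. Control spheroids were given rGST, recombinant GST. A gene was counted as a collagen chain when its symbol was Col, a number, a, and a number, which gave 44 of the 54146 genes in the table. They were divided into 11 fibrillar chains, 6 type IV chains of the basement membrane, 6 type VI chains and 21 other chains. D2A1 is a line of mouse mammary tumor cells. In both treatments it was grown in Matrigel, a basement membrane gel, in DMEM with 10% serum, without any genetic change named in the labels, and both proteins were given at 50 nM. Spheroids were harvested on the fifth day according to the study's methods. There were 3 libraries of each treatment. The labels do not say whether they came from separate cultures, so the p-values measure the spread between these libraries, which may be technical. D2A1 is a single cell line, so the libraries do not show how other tumor cells would differ.

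Each collagen molecule is a trimer of alpha chains wound into a triple helix. Some trimers hold copies of 1 chain, and others need partner chains from separate genes. Fibrillar collagens line up into the banded fibers of connective tissue, with type I as the bulk of most fibers and type V at their core, where it starts fibril assembly. Type IV collagen forms the sheet-like network of basement membranes. Type VI collagen makes beaded filaments that link cells to the matrix around them. In mammary tumors the collagen around the cells is made by stromal fibroblasts and by the tumor cells themselves.

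The promoter sequences of 7 chains are shown for the comparisons that follow. Col5a1 and Col8a1 had the highest TPM of their classes with rGST. Col4a5 and Col4a6 lie head to head on chromosome X, with annotated start sites 1309 bases apart. Col6a1, Col6a2 and Col6a3 encode the partner chains of type VI collagen, of which Col6a2 and Col6a1 lie on the same strand of chromosome 10 with start sites 102538 bases apart. Sequences are from RefSeq on GRCm38.p6, written 5′ to 3′ on the strand of the gene, and cover the bases up to 250 before the RefSeq start site that lie outside annotated exons. The windows are chr2:27886175-27886424 (plus strand) for Col5a1, chr16:57754738-57754987 (minus) for Col8a1, chrX:141475169-141475384 (plus) for Col4a5, chrX:141474077-141474326 (minus) for Col4a6, chr10:76726169-76726294 (minus) for Col6a1, chr10:76623631-76623880 (minus) for Col6a2 and chr1:90843972-90844221 (minus) for Col6a3. Capitals mark matches on either strand to the letters GGGCGG, known as a GC box, or to the letters of a CCAAT box. A TATA box and an AP-1 site were searched as well, each motif on its own, and had no match in these stretches.
Col5a1: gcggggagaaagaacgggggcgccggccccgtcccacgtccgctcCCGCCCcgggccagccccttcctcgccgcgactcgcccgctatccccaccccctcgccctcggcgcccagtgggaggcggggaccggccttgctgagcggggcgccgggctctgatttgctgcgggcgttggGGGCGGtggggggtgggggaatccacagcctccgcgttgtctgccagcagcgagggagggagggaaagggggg
Col8a1: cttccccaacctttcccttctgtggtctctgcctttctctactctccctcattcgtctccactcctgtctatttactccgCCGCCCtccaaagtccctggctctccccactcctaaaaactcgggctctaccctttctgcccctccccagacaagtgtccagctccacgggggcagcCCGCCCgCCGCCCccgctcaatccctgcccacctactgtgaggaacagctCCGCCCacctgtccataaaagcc
Col4a5: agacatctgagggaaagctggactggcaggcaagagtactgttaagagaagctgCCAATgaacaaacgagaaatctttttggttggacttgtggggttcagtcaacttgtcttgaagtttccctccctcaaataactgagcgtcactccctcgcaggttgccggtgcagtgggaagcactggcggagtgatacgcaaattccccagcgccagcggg
Col4a6: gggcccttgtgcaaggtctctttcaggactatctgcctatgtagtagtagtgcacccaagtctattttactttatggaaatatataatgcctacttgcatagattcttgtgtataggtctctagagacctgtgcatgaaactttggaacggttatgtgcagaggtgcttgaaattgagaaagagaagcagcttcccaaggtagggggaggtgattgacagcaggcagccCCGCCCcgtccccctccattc
Col6a1: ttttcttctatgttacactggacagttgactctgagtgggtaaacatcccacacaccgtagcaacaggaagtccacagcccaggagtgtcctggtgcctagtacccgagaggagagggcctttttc
Col6a2: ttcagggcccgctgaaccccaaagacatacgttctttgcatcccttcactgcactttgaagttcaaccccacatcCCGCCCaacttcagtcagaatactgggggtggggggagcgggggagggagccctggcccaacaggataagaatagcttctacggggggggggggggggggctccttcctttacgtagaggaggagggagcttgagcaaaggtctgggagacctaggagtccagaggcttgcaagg
Col6a3: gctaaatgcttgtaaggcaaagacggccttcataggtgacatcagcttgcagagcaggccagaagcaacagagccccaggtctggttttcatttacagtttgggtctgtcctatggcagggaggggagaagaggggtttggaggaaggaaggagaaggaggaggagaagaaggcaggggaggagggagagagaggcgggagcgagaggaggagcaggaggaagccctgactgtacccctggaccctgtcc

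RefSeq windows of 250 bases before and 50 after the start site were matched for 35 of the 44 chains and for 15 of the 19 chains that were tested. Motifs and GC content were read only in the 250 bases before the start site. A GC box was found in 11 of these 15 windows and in 32.7% of all 32851 windows. A CCAAT box was in 6 of 15 and in 33.8% of all, a TATA box (TATAAA) in 1 of 15 and in 12.4% of all. An AP-1 site, spelled TGANTCA, was in 1 of 15 and in 6.75% of all. The GC content of the 15 windows had a median of 59.2%, against 52.4% over all windows. Among the printed stretches, Col8a1 held 4 GC boxes, Col5a1 2, and Col4a6 and Col6a2 1 each. Of the head-to-head genes, Col4a5 held a CCAAT box and Col4a6 did not. Both windows held 1 GC box, that of Col4a5 in the 34 exon bases left out of its printed stretch. No match lay in the printed bases of Col6a1 and Col6a3. The 1 window with an AP-1 site was that of Col6a1, where the site lay in the exon bases that are not printed. These matches describe the letters of the windows only. The windows of Col4a1 and Col4a2 lie wholly in annotated exons and are not shown.

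The values are TPM, a unit of transcripts relative to all others in a library that takes transcript length into account, so levels of different chains can be compared per length of transcript. How deeply each library was sequenced cannot be read from TPM. Between 12390 and 12449 genes reached 1 TPM in the rGST libraries and between 11906 and 11981 in the rSLURP1 libraries. Of the 44 chains, 19 reached 1 TPM in at least 3 libraries and were tested, namely 3 of the 11 fibrillar, 4 of the 6 type IV, 3 of the 6 type VI and 9 of the 21 other chains. The 25 others stayed below 1 TPM in every library, 13 of them below 0.1 TPM. Chains were tested with limma on log2(TPM + 1) in a fit of all 12301 genes that passed the same filter, a scale on which the changes of low chains appear smaller than they are.

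Epithelial and mesenchymal markers were read first to check the cell type on the labels. Epcam, Krt5 and Krt14, which mark luminal or basal mammary epithelium, were listed at 0 in all 6 libraries, and Cdh1 (E-cadherin) did not exceed 0.07 TPM. Krt18 was at 191 to 199 TPM with rGST and at 196 to 199 with rSLURP1. Vim, a mesenchymal intermediate filament, was at 1184 to 1340 TPM with rGST and at 640.3 to 699 with rSLURP1. Of the other epithelial markers, the basal factor Trp63 was at 3.67 to 4.36 TPM with rGST and 1.65 to 2.35 with rSLURP1. Krt8 was at 1.40 to 1.66 and 0.51 to 0.81, and Krt7, Krt19 and Krt17 reached 1.37, 0.49 and 0.06 TPM. On the mesenchymal list, Cdh2 (N-cadherin) did not exceed 0.05 TPM. The means of Fn1, Twist1, Snai1, Zeb2 and Zeb1 with rGST were 5416, 232, 47.4, 42.6 and 10.9 TPM.

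Collagen transcripts were abundant in the rGST spheroids and came mostly from a few genes. Col5a1 (alpha 1 chain of type V) stood at 494, 489 and 502 TPM, the highest chain in each rGST library. Col4a5 (type IV alpha 5 chain) followed at 356, 361 and 351 TPM. Next in order came Col4a2, Col4a1, Col8a1, Col16a1 and Col18a1, with means of 187, 125, 113, 90.7 and 32.4 TPM. The rGST libraries of each did not overlap with those of its neighbour in the order, except that Col18a1 overlapped with Col6a1, which had a mean of 31.8 TPM. The first 7 of the chains held 92.7% to 93.0% of the summed collagen TPM with rGST, and the same 7 held 95.7% to 96.0% with rSLURP1. In the rSLURP1 libraries Col5a1 was still highest, followed by Col4a2, Col4a1 and Col4a5, the last of which overlapped with Col4a1. From Col6a3 down, most neighbours in the rSLURP1 order overlapped.

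**Figure D1:**
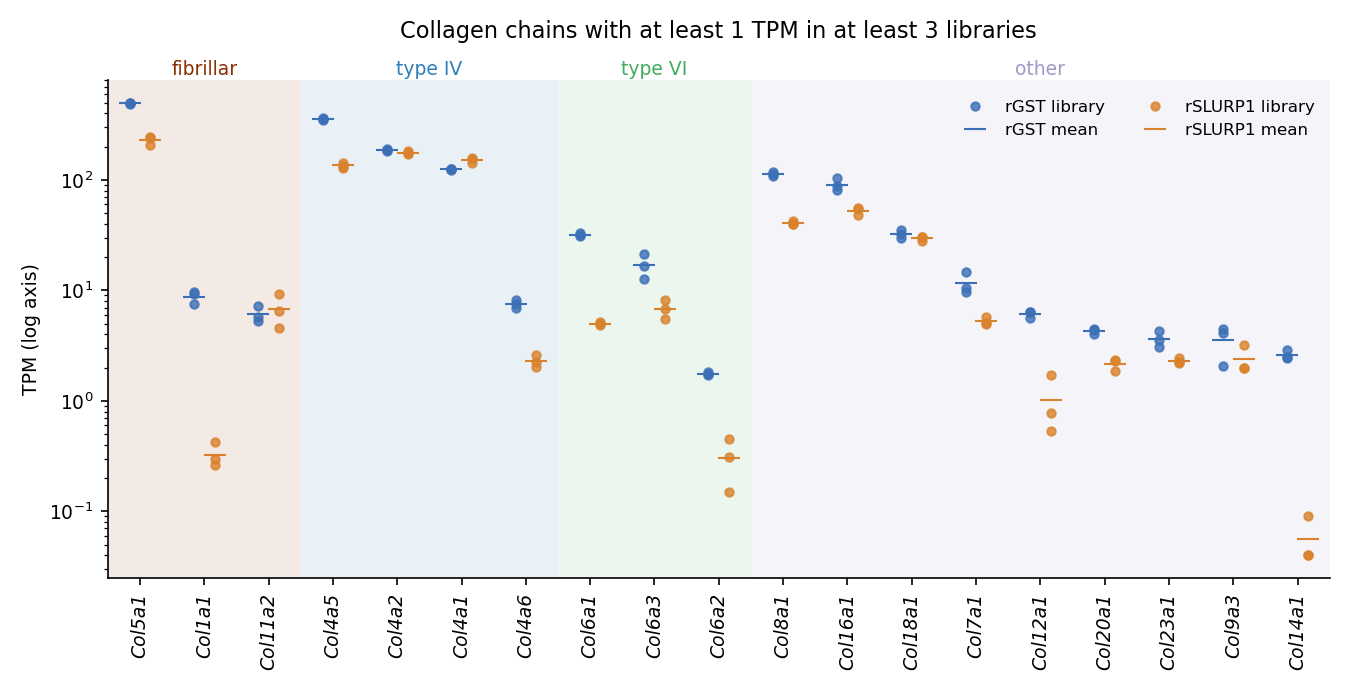
TPM (log axis) of the 19 collagen chains with at least 1 TPM in at least 3 libraries, ordered by class, with a point for each library and a line at each treatment's mean of 3 libraries. Points of the 2 treatments overlap for Col11a2, Col4a2, Col18a1 and Col9a3, rSLURP1 libraries are higher for Col4a1 and lower for the other 14 chains.

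Among the 19 tested chains, 14 were lower and 1 higher with rSLURP1 in limma (adjusted p-value up to 0.05), and 4 were not called. Of all 12301 tested genes, 58.5% were lower and 8.66% higher. With a fold change of at least 2 in addition, 11 chains were lower, against 7.06% of all genes, and no chain was 2-fold higher at any p-value. The treatments did not overlap in the same 14 lower chains and 1 higher chain, where 61.7% of all genes were lower without overlap and 9.75% higher. A chain that passed the filter through its rGST libraries alone had to be lower, which holds for Col1a1, Col14a1 and Col6a2. Of the 16 chains that reached 1 TPM in at least 1 library of each treatment, 11 were lower, 8 of them at least 2-fold, and 1 was higher. Col12a1, among the 11 and the 8, was at only 1.72, 0.78 and 0.53 TPM with rSLURP1. With a filter of 1 TPM in all libraries 10 chains were lower, 7 of them at least 2-fold, and 1 was higher. The 6 tested markers of fibroblasts were also lower, where 58.5% of all genes were, and the direction of Dpt among them was fixed by the filter. Their part in these differences was not tested. In bulk RNA, fewer cells of a kind and less RNA per cell cannot be told apart.

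Scaling bears on these counts, because the middle of all tested genes lay at a log2 fold change of -0.33 with the TPM as deposited. With each library divided by the median ratio of its genes this median was 0.0063, and 13 chains were lower and 3 higher. In that fit 24.6% of all genes were lower and 26.6% higher. With a correction for the length and GC content of transcripts, 11 chains were lower and 4 higher, against 21.9% and 27% of all genes. The tested chains are long, with a median of 6048 bases (range 3046 to 11511) for the longest annotated transcript, compared with 3152 bases over all tested genes. Changes are therefore also given relative to the median of all tested genes. Over the 19 tested chains the median log2 fold change was -1.09, or -0.76 relative to all genes. Over the 16 chains that reached 1 TPM in a library of each treatment it was -0.89, or -0.56 relative to all genes.

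**Figure D2:**
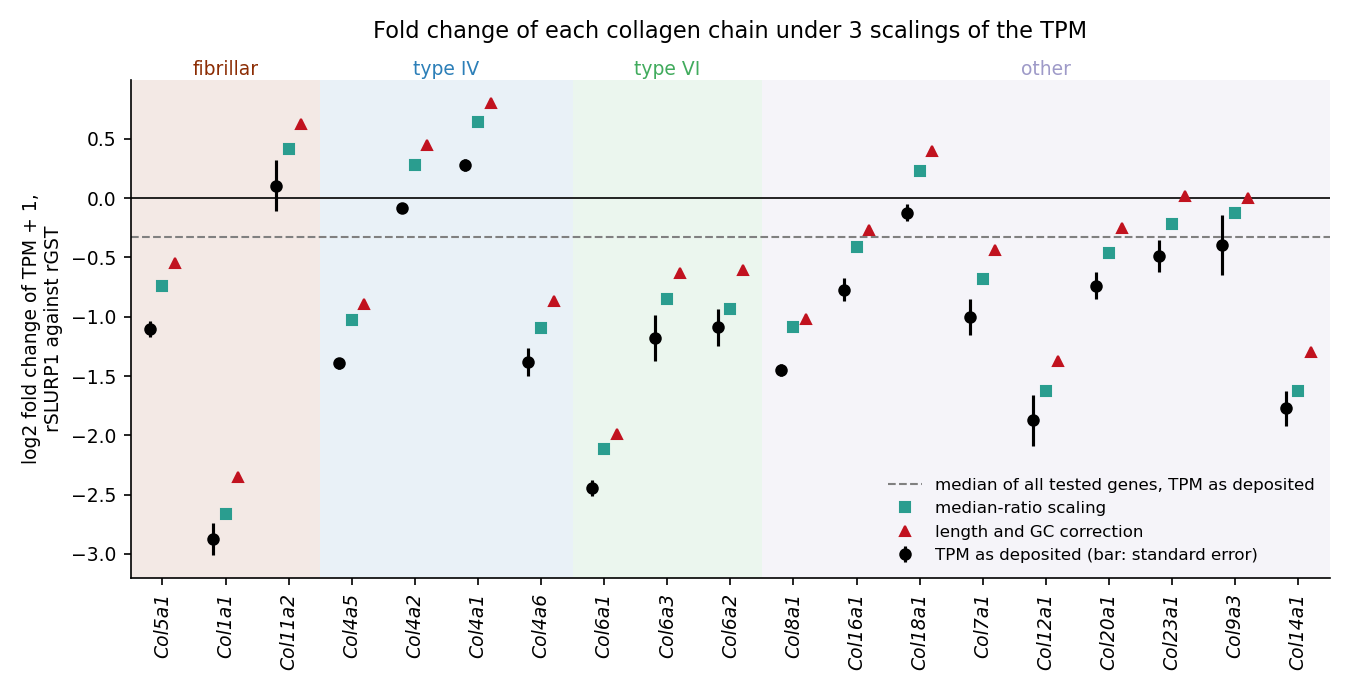
Log2 fold change of TPM + 1, rSLURP1 against rGST, of the 19 tested chains by class, with the TPM as deposited (circles, bars for the standard error), with median-ratio scaling (squares) and with a length and GC correction (triangles); the dashed line is the median of all tested genes, -0.33. Col4a2 and Col18a1 lie below 0 as deposited and above 0 under both other scalings, Col23a1 crosses 0 only under the length and GC correction, and Col4a1 lies above 0 under all 3.

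Fibrillar chains were represented almost wholly by Col5a1, a chain of the type V collagen that starts fibril assembly (ENSMUSG00000026837.15; GRCm38 chromosome 2, 27886425 to 28039514, plus strand). Its TPM with rSLURP1 was 206, 245 and 241, against 494, 489 and 502 with rGST. All rSLURP1 libraries were below all rGST libraries, and the rSLURP1 mean of 230.8 ± 21.4 TPM was 46.6% of the rGST mean of 495 ± 6.63 (SD, n = 3 each). The log2 fold change was -1.10 (SE 0.066, limma adjusted p = 9.34e-06), or -0.78 relative to all genes. It was -0.74 with median-ratio scaling and -0.55 with the length and GC correction, both called lower. Exons of 2 genes on the opposite strand, 2810430I11Rik and Gm13372, overlap with those of Col5a1, and whether reads were counted by strand is not given in the sources used here.

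Col1a1, which encodes the major chain of type I collagen (ENSMUSG00000001506.10; chromosome 11, 94936224 to 94953042, plus strand), was at 9.19, 9.66 and 7.48 TPM with rGST. With rSLURP1 it was at 0.26, 0.42 and 0.30 TPM, all below the rGST libraries, and its mean was 3.72% of the rGST mean. The log2 fold change of TPM + 1 was -2.88 (SE 0.14, limma adjusted p = 3.42e-06), but Col1a1 passed the filter through its rGST libraries alone, so its direction was fixed. Its partner Col1a2 was at 0.36, 0.49 and 0.24 TPM with rGST and was listed at 0, 0.01 and 0 with rSLURP1. Both type I chains were thus far below Col5a1 in either treatment, and the difference of Col1a2 was not tested. Col3a1, the chain of type III collagen, was at 0.27, 0.69 and 0.35 TPM with rGST and at 0.01, 0 and 0.15 with rSLURP1.

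Col11a2, a chain of the minor fibrillar type XI, was at 5.25, 5.79 and 7.16 TPM with rGST and at 4.59, 9.22 and 6.56 with rSLURP1. The treatments overlapped, and the log2 fold change of 0.11 (SE 0.22, limma adjusted p = 0.684) was not called as deposited. It was 0.63 and called higher with the length and GC correction (limma adjusted p = 0.0389), and -0.11 without rSLURP1 replicate 2. The 8 untested fibrillar chains were Col1a2, Col3a1, Col24a1, which reached 0.36 TPM with rGST and 0.02 with rSLURP1, Col2a1, which reached 0.1 TPM, and 4 chains below 0.1 TPM in every library. Col5a2, which pairs with Col5a1 in the common type V trimer, was among the latter, at 0.01 to 0.04 TPM with rGST and 0 to 0.08 with rSLURP1. Col5a1 was thus present without a comparable level of Col5a2 transcript in either treatment. Of the 3 tested fibrillar chains, 2 were lower, where 58.5% of all genes were, and 1 of the 2, Col1a1, had a fixed direction. The median log2 fold change of the 3 was -1.10, or -0.78 relative to all genes, which is the value of Col5a1. With a filter of 1 TPM in all libraries, which leaves out Col1a1, the median relative to all genes was -0.18.

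Type IV chains went in both directions. Col4a1 and Col4a2 are partners in the trimer found in nearly all basement membranes, and the former was higher and the latter was not called as deposited. Col4a5 and Col4a6, which join in a trimer of more specialized basement membranes, were lower with rSLURP1. Of the 4 tested chains 2 were lower, both at least 2-fold, 1 was higher and 1 was not called. Of all genes, 58.5% were lower, 7.06% lower at least 2-fold and 8.66% higher. The median log2 fold change of the 4 chains, -0.73, or -0.41 relative to all genes, lies between the 2 pairs and describes neither.

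Col4a1 (ENSMUSG00000031502.11; chromosome 8, 11198423 to 11312826, minus strand) was at 125, 124 and 125 TPM with rGST and at 142, 159 and 154 with rSLURP1. All rSLURP1 libraries were above all rGST libraries. The log2 fold change was 0.28 (SE 0.049, limma adjusted p = 0.00157), or 0.61 relative to all genes, and it was 0.64 with median-ratio scaling and 0.81 with the length and GC correction. It was the only chain called higher as deposited.

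Col4a2 (ENSMUSG00000031503.13; chromosome 8, 11312805 to 11449287, plus strand) was at 186, 192 and 184 TPM with rGST and at 170.5, 184 and 176 with rSLURP1. The treatments overlapped, and the log2 fold change of -0.08 (SE 0.042, limma adjusted p = 0.118) was not called. Relative to all genes it was 0.24, and it was called higher at 0.28 with median-ratio scaling (limma adjusted p = 4.33e-04) and at 0.45 with the length and GC correction (adjusted p = 2.15e-05). Without rSLURP1 replicate 2 the chain was called lower at -0.11 (limma adjusted p = 0.0481). The 2 genes lie head to head, and their annotated exons overlap from position 11312805 to 11312826 of chromosome 8.

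Col4a5 (ENSMUSG00000031274.16; chromosome X, 141475385 to 141689234, plus strand) was at 356, 361 and 351 TPM with rGST and at 128, 143 and 135 with rSLURP1. The rSLURP1 mean of 135.3 ± 7.41 TPM was 38.0% of the rGST mean of 356 ± 5.16 (SD, n = 3 each), without overlap. This gave a log2 fold change of -1.39 (SE 0.046, limma adjusted p = 7.02e-07), or -1.07 relative to all genes. Col4a6 (ENSMUSG00000031273.16; chromosome X, 141165403 to 141474076, minus strand) was far lower in level, at 6.89, 7.59 and 8.22 TPM with rGST and at 2.01, 2.60 and 2.25 with rSLURP1. The log2 fold change of TPM + 1 was -1.38 (SE 0.12, limma adjusted p = 4.36e-05), which the pseudocount compresses at this level. The rSLURP1 mean of Col4a6 was 30.2% of its rGST mean. With a pseudocount of 0.1 the log2 fold changes were -1.69 for Col4a6 and -1.40 for Col4a5. Both chains of the head-to-head pair were also called lower with median-ratio scaling and with the length and GC correction. The remaining type IV chains, Col4a3 and Col4a4, reached no more than 0.13 and 0.02 TPM.

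All 3 tested type VI chains were lower with rSLURP1, each at least 2-fold as deposited, and none overlapped between treatments. By comparison, 58.5% of all tested genes were lower, 7.06% were lower at least 2-fold and 61.7% were lower without overlap. Col6a2, among the 3, passed the filter through its rGST libraries alone and had to be lower. Col6a1 (ENSMUSG00000001119.7; chromosome 10, 76708792 to 76726168, minus strand) was at 30.8, 31.6 and 33.0 TPM with rGST and at 4.84, 5.01 and 5.18 with rSLURP1, or 15.8% of the rGST mean. Its log2 fold change of -2.45 (SE 0.068, limma adjusted p = 3.25e-07) was -2.12 relative to all genes.

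Col6a3 (ENSMUSG00000048126.16; chromosome 1, 90765923 to 90843971, minus strand), which encodes the longest chain of the type VI trimer, was at 12.7, 16.6 and 21.2 TPM with rGST. With rSLURP1 it was at 5.56, 6.73 and 8.13 TPM. The decrease was smaller than that of Col6a1, with a log2 fold change of -1.18 (SE 0.19, limma adjusted p = 0.00111), and the libraries varied more. Col6a2 (ENSMUSG00000020241.13; chromosome 10, 76595762 to 76623630, minus strand) was low throughout, at 1.74, 1.73 and 1.82 TPM with rGST and at 0.15, 0.31 and 0.45 with rSLURP1. Its log2 fold change of -1.09 (SE 0.16, limma adjusted p = 6.31e-04) is compressed by the pseudocount, since its rSLURP1 mean was 17.2% of the rGST mean. It passed the filter through the rGST libraries alone. The 3 other type VI chains, Col6a4, Col6a5 and Col6a6, reached at most 0.04 TPM. The median log2 fold change of the 3 tested chains was -1.18, or -0.85 relative to all genes. With median-ratio scaling Col6a1, Col6a3 and Col6a2 were at -2.12, -0.85 and -0.93. With the length and GC correction they were at -1.99, -0.63 and -0.61. All 3 were called lower in both fits, where 24.6% and 21.9% of all genes were. Only Col6a1 stayed lower by at least 2-fold.

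The other chains held 9 tested members, of which 7 were lower, 4 of them at least 2-fold, and 2 were not called. Of all genes, 58.5% were lower and 7.06% lower at least 2-fold. Col14a1, among the 7 and the 4, passed the filter through its rGST libraries alone and had to be lower. The median log2 fold change of the 9 was -0.77, or -0.44 relative to all genes. With median-ratio scaling 6 were lower and 1 higher, against 24.6% and 26.6% of all genes. With the length and GC correction 4 were lower and 1 higher, against 21.9% and 27%.

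Col8a1, a chain of the network-forming type VIII collagen of vessel walls and Descemet's membrane (ENSMUSG00000068196.5; chromosome 16, 57624258 to 57754737, minus strand), was at 113, 117 and 108 TPM with rGST. It was at 39.8, 42.2 and 40.0 TPM with rSLURP1, well below every rGST library, and its rSLURP1 mean was 36.1% of the rGST mean. The log2 fold change was -1.45 (SE 0.050, limma adjusted p = 8.22e-07), or -1.12 relative to all genes. Its partner Col8a2 stayed at 0.42 to 0.55 TPM with rGST and was at 0.74, 0.1 and 0.05 with rSLURP1.

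The FACIT chains sit on the surface of fibrils and do not form fibrils of their own. They had 5 tested members, 4 of them lower, against 58.5% of all genes. Col16a1 (type XVI), the most abundant of them, was at 80.4, 87.6 and 104 TPM with rGST and at 47.8, 54.7 and 55.2 with rSLURP1, without overlap. The log2 fold change was -0.77 (SE 0.10, limma adjusted p = 3.58e-04), and it was not called with the length and GC correction (-0.27, limma adjusted p = 0.0600) unless the replicate number was a block (adjusted p = 0.0212). Col12a1, the type XII chain of dense connective tissue, was at 6.36, 5.67 and 6.43 TPM with rGST and at 1.72, 0.78 and 0.53 with rSLURP1. This gave a log2 fold change of -1.87 (SE 0.21, limma adjusted p = 1.85e-04).

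Col14a1, the type XIV relative of Col12a1, was at 2.42, 2.90 and 2.52 TPM with rGST and at 0.04, 0.04 and 0.09 with rSLURP1, which is 2.17% of the rGST mean. It stayed below 0.1 TPM in every rSLURP1 library, and its log2 fold change of TPM + 1 was -1.77 (SE 0.15, limma adjusted p = 3.98e-05). It too passed the filter through the rGST libraries alone, so that its direction was fixed. Col20a1 was at 4.07 to 4.45 TPM with rGST and at 1.88 to 2.34 with rSLURP1. It was called lower as deposited, at a log2 fold change of -0.74 (limma adjusted p = 9.34e-04), and not called with the length and GC correction (-0.25). Col9a3, a chain of cartilage type IX collagen, overlapped between treatments, with 2.05 to 4.44 TPM with rGST and 1.97 to 3.23 with rSLURP1. Its log2 fold change was -0.39 (limma adjusted p = 0.203), and it was -0.66 and called lower without rGST replicate 1 (adjusted p = 0.0235). Exons of Col9a3 overlap with those of Tcfl5 on the opposite strand, and those of Col20a1 with BX649560.1 on the same strand.

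Col7a1, which encodes the anchoring fibrils below epithelial basement membranes, was at 14.8, 10.45 and 9.76 TPM with rGST and at 4.94, 5.03 and 5.73 with rSLURP1. The groups did not overlap, and the log2 fold change was -1.004 (SE 0.15, limma adjusted p = 7.67e-04). With the length and GC correction it was -0.44, called without the replicate block (limma adjusted p = 0.0474) and not called with it (0.0665). Col23a1, a transmembrane collagen, was at 3.07 to 4.28 TPM with rGST and at 2.18 to 2.46 with rSLURP1. Its log2 fold change of -0.48 (SE 0.13, limma adjusted p = 0.0135) was -0.22 and not called with median-ratio scaling, and 0.019 with the length and GC correction. Col18a1, a heparan sulfate proteoglycan of basement membranes whose tail is released as endostatin, was at 30.0, 32.1 and 34.9 TPM with rGST and at 30.2, 30.6 and 28.2 with rSLURP1. The treatments overlapped and the log2 fold change of -0.12 (SE 0.069, limma adjusted p = 0.159) was not called, while it was called higher at 0.23 with median-ratio scaling and at 0.39 with the length and GC correction. Together with Col4a1 and Col4a2, Col18a1 was thus 1 of the 3 chains called higher once the libraries were scaled by median ratio.

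The 12 untested chains outside the fibrillar, type IV and type VI classes were all low. Col15a1, the close relative of Col18a1, was at 0.55, 0.02 and 0.15 TPM with rGST and at 0.38, 0.03 and 0.83 with rSLURP1. Col10a1, the type X chain of hypertrophic cartilage, was at 0.12 to 0.24 TPM with rGST and at most 0.01 with rSLURP1. The transmembrane chains Col25a1, Col17a1 and Col13a1 reached 0.27, 0.21 and 0.1 TPM, and the FACIT chain Col22a1 reached 0.18 TPM. The 5 others of this class stayed below 0.1 TPM. Of all 44 chains, 5 were listed at 0 in all libraries, namely Col19a1, Col27a1, Col6a6, Col9a1 and Col9a2.

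The summed TPM of the 44 chains was 1489 to 1520 with rGST and 797 to 898 with rSLURP1. This is 0.151% ± 0.0016 of all TPM in the rGST libraries and 0.0854% ± 0.0052 in the rSLURP1 libraries (SD, n = 3 each), so the rSLURP1 mean was 0.567 times the rGST mean. With rGST and rSLURP1 in turn, the mean summed TPM was 511 and 238.1 for fibrillar chains, 676 and 466 for type IV chains, 50.4 and 12.1 for type VI chains and 269 and 136.9 for other chains. No sum overlapped between treatments, and no test was run on the sums.

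Shares of the summed collagen TPM are not altered when a library is multiplied by a single factor, as in median-ratio scaling. They were not computed after quantile normalization or the length and GC correction, which move chains by different amounts. Fibrillar chains held 33.9% ± 0.39 of it with rGST and 27.8% ± 1.16 with rSLURP1. The share of type IV chains was 44.9% ± 0.80 with rGST and 54.7% ± 0.84 with rSLURP1, that of type VI chains 3.35% ± 0.33 and 1.42% ± 0.15, and that of other chains 17.8% ± 0.44 and 16.1% ± 0.46 (SD, n = 3 each). The treatments did not overlap in any class. Type IV was the only class with a larger share under rSLURP1, by 9.79 percentage points, and shares of a whole must balance. Within type IV, Col4a1 went from 8.28% to 17.8% and Col4a2 from 12.4% to 20.8% of the collagen TPM, while Col4a5 went from 23.6% to 15.9%. Col5a1 went from 32.9% to 27.0%. Without Col5a1 the share of fibrillar chains was 1.58% with rGST and 1.15% with rSLURP1, so the class share is in effect the share of that chain. The share of Col16a1, at 6.02% and 6.15%, overlapped between treatments.

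**Figure D3:**
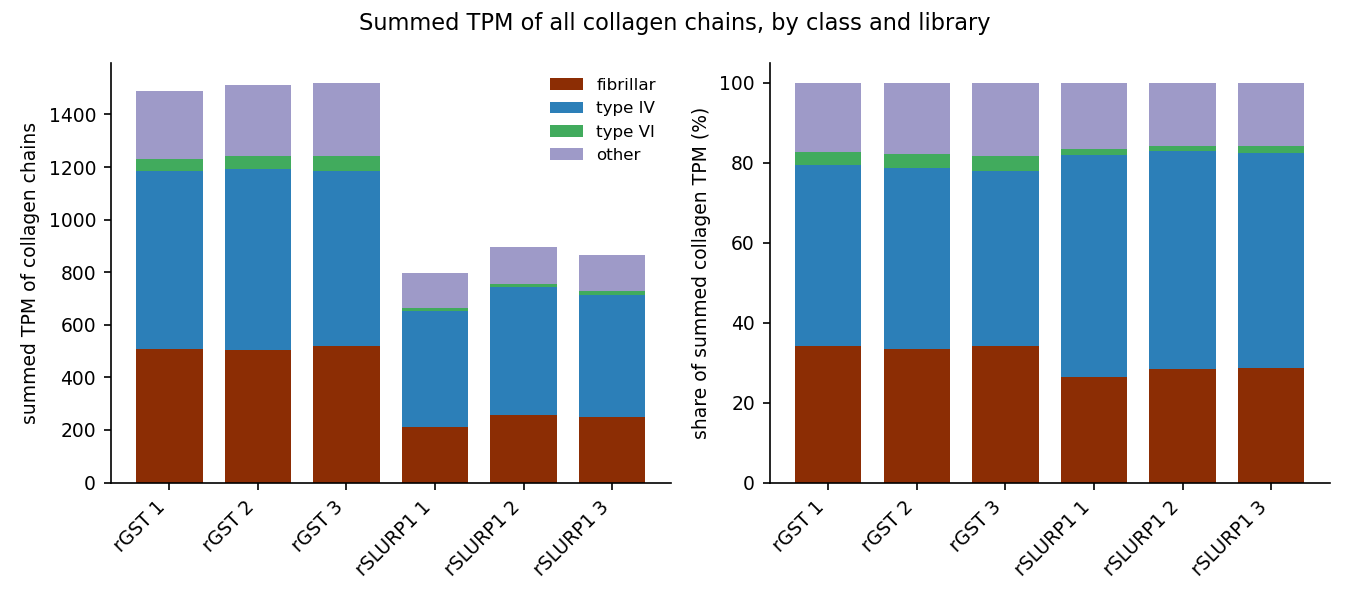
Summed TPM of the 44 collagen chains (left) and the share of each class in that sum in percent (right), a bar for each library. The rGST bars reach 1489 to 1520 TPM and the rSLURP1 bars 797 to 898, and the type IV part takes 44.9% of the rGST bars and 54.7% of the rSLURP1 bars.

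Ratios of partner chains within a library are likewise the same whatever single factor the library is multiplied by, though a correction that differs between genes can move them. Of 9 pairs planned, 6 had both chains above 0 TPM in all libraries and were tested. Col1a1 to Col1a2, Col3a1 to Col1a1 and Col5a1 to Col5a2 were left out. Col3a1 and Col1a1 belong to separate collagens, types III and I, and are not partners in a trimer. With 3 libraries against 3, an exact two-sided permutation test cannot go below p = 0.1, and in 4 pairs the treatments did not overlap, so that each had p = 0.1 in the exact test and 0.15 after adjustment over the 6 pairs. Col4a1 was at 0.673, 0.643 and 0.682 times Col4a2 with rGST and at 0.834, 0.863 and 0.875 times with rSLURP1, a difference of 0.36 in log2 ratio. Col4a5 was at 51.7, 47.6 and 42.7 times Col4a6 with rGST and at 63.8, 55.0 and 59.9 times with rSLURP1, a difference of 0.33.

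Within type VI, Col6a3 was at 0.411, 0.526 and 0.643 times Col6a1 with rGST and at 1.15, 1.34 and 1.57 times with rSLURP1, a difference of 1.37 in log2 ratio. Col6a1 was the more abundant chain in each rGST library and Col6a3 in each rSLURP1 library. The ratio of Col6a3 to Col6a2 differed by 1.38, with means of 9.52 and 25.6. Col6a1 to Col6a2 overlapped between treatments, at 17.7 to 18.3 with rGST and 11.5 to 32.3 with rSLURP1, with a difference of 0.011 in log2 ratio (p = 1 in the exact permutation test). Its spread with rSLURP1 came from Col6a2, which was at 0.15 to 0.45 TPM. Col8a1 to Col8a2 overlapped too, at 205 to 273 with rGST and 53.8 to 800.6 with rSLURP1 (p = 1 in the exact permutation test).

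Chains of different trimers were compared as a description only. Col4a5 was at 2.85 ± 0.061 times Col4a1 with rGST and at 0.891 ± 0.015 times with rSLURP1 (SD, n = 3 each), so the order of these chains changed in every library. Col4a6 was at 0.0404 times Col4a2 with rGST and 0.0129 times with rSLURP1. Col5a1 was at 3.97 ± 0.036 times Col4a1 with rGST and 1.52 ± 0.059 times with rSLURP1.

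**Figure D4:**
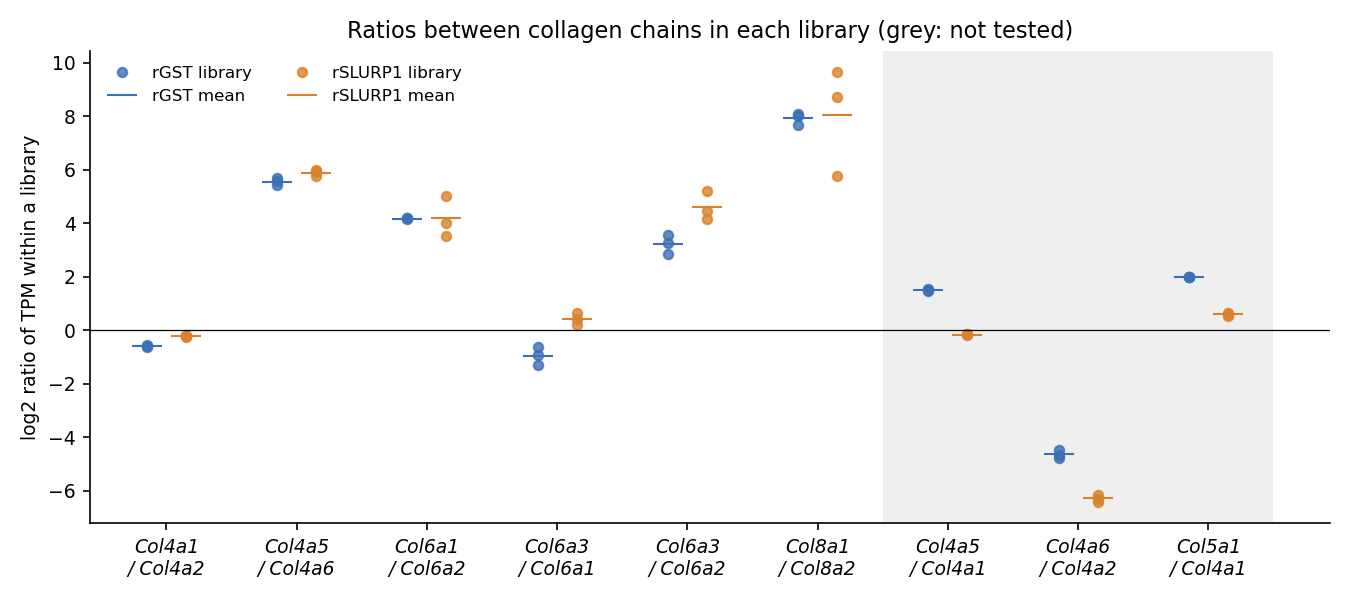
Log2 ratio of TPM between 2 chains of the same library, with a point for each library and a line at the mean of each treatment; ratios on grey pair chains of different trimers and were not tested. Treatments overlap for Col6a1 to Col6a2 and for Col8a1 to Col8a2 and for no other ratio, and Col6a3 to Col6a1 and Col4a5 to Col4a1 cross 0, the line of equal levels.

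Genes that modify, fold, secrete and process collagen were read as a list beside the chains. Of 39 such genes measured, 28 were tested, and 21 were lower, 2 higher and 5 not called, where 58.5% of all genes were lower and 8.66% higher. Only Pcolce, an enhancer of procollagen cleavage, and P3h3, of the prolyl 3-hydroxylase family, were lower at least 2-fold as deposited. Pcolce went from 895 ± 35.3 to 339 ± 16.7 TPM and P3h3 from 89.3 ± 3.23 to 39.0 ± 1.99 (SD, n = 3 each), with log2 fold changes of -1.40 and -1.18. The median of the list was -0.45, or -0.13 relative to all genes, and with median-ratio scaling 8 genes were lower and 9 higher, where 24.6% and 26.6% of all genes were. The direction of this list as a whole thus rests on the scaling.

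Serpinh1, the collagen chaperone of the endoplasmic reticulum, was at 542, 535 and 553 TPM with rGST and at 534, 551 and 528 with rSLURP1. The treatments overlapped, and its log2 fold change of -0.015 (limma adjusted p = 0.712) was not called as deposited, while it was 0.35 and called higher with median-ratio scaling. P4ha1 and P4ha2, catalytic subunits of the prolyl 4-hydroxylase that stabilizes the triple helix, were lower at log2 fold changes of -0.76 and -0.94, and both were called under all 3 scalings. Plod2, a lysyl hydroxylase, was lower at -0.65 as deposited and was not called with median-ratio scaling (-0.30) or with the length and GC correction (-0.28). Ppib, the cyclophilin of the prolyl 3-hydroxylation complex, and Tmem38b, an ion channel of the endoplasmic reticulum, were higher at 0.16 and 0.44. Sparc, a secreted collagen-binding protein, went from 467 to 236.3 TPM, a log2 fold change of -0.98 (limma adjusted p = 1.29e-06). The cross-linking enzymes Lox and Loxl1 did not exceed 0.01 TPM, while Loxl3 was at 11.6 to 14.7 TPM with rGST and 6.04 to 9.23 with rSLURP1.

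Of 11 collagen receptors and uptake genes, 7 were tested and 7 were lower as deposited, where 58.5% of all genes were lower. With median-ratio scaling 4 were lower, against 24.6% of all genes. Mrc2, an endocytic receptor that takes up collagen, was at 60.5, 62.1 and 62.2 TPM with rGST and at 14.7 to 16.7 with rSLURP1. Its log2 fold change of -1.93 (SE 0.061, limma adjusted p = 5.72e-07) was the largest of the list. Ddr2, a kinase receptor for fibrillar collagen, was lower at -0.70, Itga10, an integrin subunit that binds collagen, at -1.15. Ddr1 was lower at -0.26 as deposited. It was at 0.094 and not called with median-ratio scaling, and was higher at 0.19 with the length and GC correction (limma adjusted p = 0.0128). Itgb1, the beta subunit shared by the collagen-binding integrins, was lower at -0.48. The median of the 7 was -0.70, or -0.37 relative to all genes.

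**Figure D5:**
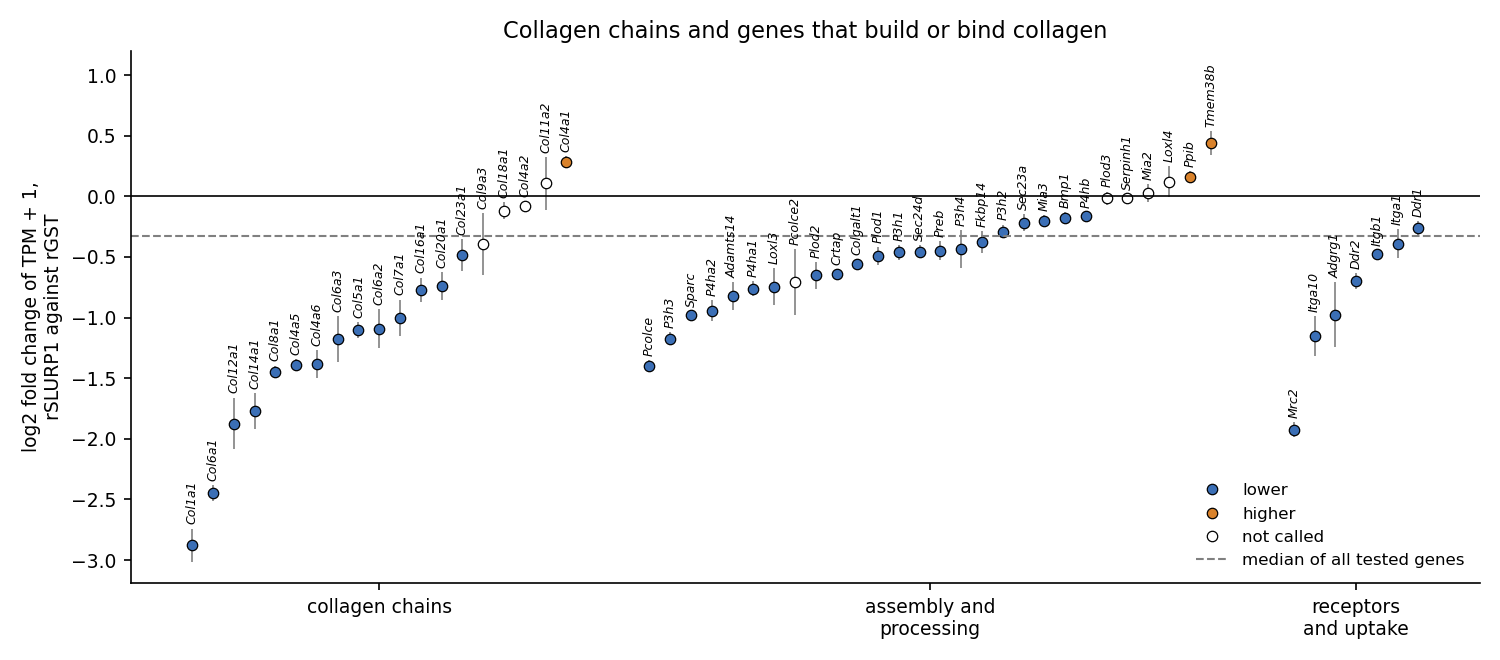
Log2 fold change of TPM + 1, rSLURP1 against rGST, with its standard error, for the tested collagen chains (19), genes of collagen assembly and processing (28) and collagen receptors and uptake genes (7), as deposited; the dashed line is the median of all tested genes, -0.33. The chains reach further down than the assembly genes, whose median was -0.45, and of the assembly genes 8 were lower and 9 higher with median-ratio scaling.

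Markers of other cell types were measured beside the collagen chains. Of 8 fibroblast markers 6 were tested, and 6 were lower as deposited, with median-ratio scaling and with the length and GC correction. Of all genes, 58.5%, 24.6% and 21.9% in turn were lower. Dpt, among the 6, passed the filter through its rGST libraries alone and had to be lower. Their summed TPM was 1019 to 1153 with rGST and 86.1 to 97.2 with rSLURP1. Dcn (decorin) was at 520 to 636 TPM with rGST and at 5.15 to 5.88 with rSLURP1, Lum (lumican) at 165 to 195 and 0.58 to 1.09, and the receptors Pdgfra and Pdgfrb also fell, from 197 to 53.9 and from 108 to 19.6. The fibroblast markers Fap and Thy1 did not exceed 0.14 and 0.77 TPM in any library. Of the 7 mesenchymal genes 6 were tested, all but Cdh2. Among these, 6 were lower as deposited and 3 with median-ratio scaling, against 58.5% and 24.6% of all genes. The 4 endothelial markers summed to 0.01 to 0.31 TPM and the 5 leukocyte markers to no more than 0.05 TPM in every library. The adipocyte marker Fabp4 was at 4.53 to 7.53 TPM with rGST and at 35.8 to 39.0 with rSLURP1, with Adipoq at or below 0.15. Plin1, also on the adipocyte list, overlapped between treatments, at 0.17 to 1.64 TPM with rGST and 1.15 to 1.74 with rSLURP1. It was not called as deposited (limma adjusted p = 0.171) and was called higher with the length and GC correction (adjusted p = 0.0436). The part of the fibroblast, mesenchymal and adipocyte genes in the collagen differences was not tested.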

How the data were processed

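RNAseq of 3 rGST and 3 rSLURP1 libraries was grouped by the sample labels. TPM per gene, 1 column per library, were deposited by the authors, who had used Cutadapt, STAR (to mm10) and RSEM, in versions 1.18, 2.5.2b and 1.3.3 by the submitters' processing notes, while the paper's methods name other versions of Cutadapt and RSEM. The methods describe Smart-seq2 libraries and the labels a TruSeq mRNA kit. Read depth is unknown, so no counting error was computed. Coordinates and transcript lengths are from GENCODE M21, on the same build as the authors' M12 (54079 of 54146 identifiers matched).

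The 12301 genes with at least 1 TPM in at least 3 libraries were tested on log2(TPM + 1) with limma 3.58.1 (R 4.3.3; lmFit, eBayes with trend), with Benjamini-Hochberg adjustment and calls at 0.05, or also 2-fold. The script was tested on simulated data. Chains that passed the filter or reached 0.1 TPM in any library are named. Chains, classes and gene lists were chosen with earlier results of these data known. Same-numbered libraries did not deviate together (correlations -0.0556, -0.034 and -0.0607). Alternatives were a pseudocount of 0.1, other filters, median-ratio and quantile scaling, eBayes without trend, a replicate block, a length and GC correction (loess, span 0.3) and leaving out each library. Counts over other selections of chains and shares without Col5a1 were added after the data were seen.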

Additional observations from a re-analysis of the deposited data

How the results depend on the processing

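The number of chains called lower, 14 as deposited, was 10 to 16 under the alternatives, with 10 under a filter of 1 TPM in all libraries and 16 with no filter. It was 11 under the length/GC correction with or without the replicate block, though with the block Col16a1 gained its call and Col7a1 lost it, and it was 14 to 15 with a library left out and 14 with the replicate block alone. Same-numbered libraries did not pair (mean correlation -0.0501), and the block moved none of these counts. Chains called higher numbered 3 with either median-ratio or quantile scaling and 4 with the length/GC correction, with or without the block, against 1 as deposited. Chains lower at least 2-fold, 11 as deposited, numbered 7 with the filter in all libraries and with median-ratio scaling, 6 after quantile normalization, 5 after the length/GC correction with or without the block, and 10 to 11 with a library left out.

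Relative to all tested genes, the class median of fibrillar chains was -0.096 with no filter, -0.18 with the filter in all libraries, -0.97 with quantile normalization and -0.58 with the length/GC correction. For type IV it was 0.036 with no filter, which adds the chains near 0 TPM, -0.46 with quantile normalization and -0.24 with the length/GC correction. For type VI it was -1.93 with a pseudocount of 0.1 and -1.49 with the filter in all libraries, and for other chains -0.60, -0.12 and -0.30 with the pseudocount of 0.1, no filter and the length/GC correction. The length and GC values were the same with the block.

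Of the single chains, Col4a2 was above 0 at 0.28, 0.12 and 0.45, and Col18a1 at 0.23, 0.24 and 0.39, in turn under median-ratio scaling, under quantile normalization and under the length/GC correction with or without the block. Col23a1 was at 0.019 with that correction. With a library left out, Col11a2 ranged from -0.11 to 0.32. For Col6a1 to Col6a2 the difference in log2 ratio was -0.36 with a pseudocount of 0.1 and -0.018 with the length/GC correction, and -0.40 to 0.34 with a library left out. For Col8a1 to Col8a2 it was -0.52 with the pseudocount of 0.1 and -0.69 to 1.26 with a library left out. Without Col5a1 the shares of fibrillar, type IV, type VI and other chains differed by -0.43, 8.05, -3.04 and -4.58 percentage points. The cause of these shifts was not tested.

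No alternative gave a chain higher at least 2-fold. Over the single chains, 259 of the values under alternatives kept their direction and their side of the threshold, 7 kept the direction and lost the call, 4 gained it and 11 changed sign. The precision rests on 3 libraries of each treatment, and chains below about 1 TPM were not tested.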
